A study of Mus musculus with 18 samples.

Results

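The genes of DNA replication and S phase were followed by RNA sequencing in 18 cultures of mouse neural cells. The 46 genes were chosen by name as licensing factors, fork proteins, nucleotide synthesis enzymes and S-phase regulators, and each was found once by its symbol among the 54838 genes of the deposited count table. All 46 passed the filter on low counts, as did 20067 genes in all. The cells came from the ventricular zone of wild type C57BL/6J mouse embryos at day 14. These primary cultures grew as neurospheres (NSPs), floating clusters of neural stem and progenitor cells, with EGF at 20 ng/ml and without serum. For differentiation NSPs were plated in 10% serum without EGF. Cells were taken after 24 h and after 72 h, each without and with tumor necrosis factor (TNF) at 50 ng/ml, and after 1 week without TNF. Each of the 6 conditions had 3 replicates. The study isolated cells from single brains and describes its experiments in general as independent biological ones. Which brain or culture each RNA library came from is not given in the sources used here, so the p-values measure the spread between these samples. No RNA library was made from NSPs with TNF or from 1 week cultures with TNF. Serum, loss of EGF and of the culture supplement, the base medium, plating and time changed together between NSPs and differentiated cells. Their parts cannot be told apart.

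A cell copies its genome once in each division. In G1 the origin recognition complex (ORC), CDC6 and CDT1 load the ring-shaped MCM2-7 helicase onto DNA, a step called licensing, and geminin blocks CDT1 once S phase has begun. CDC45 and the GINS complex then switch the helicase on, DNA polymerases copy both strands on the sliding clamp PCNA, and ribonucleotide reductase and thymidylate synthase supply the building blocks. Many of these genes are activated by E2F transcription factors when cyclin-dependent kinases inactivate the retinoblastoma protein, and they are turned down when cells leave the cycle. Astrocyte precursors divide in the developing brain, whereas most mature astrocytes do not.

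Against NSPs, 45 of the 46 genes fell in the cells differentiated for 24 h, 72 h and 1 week, and none rose. Of all genes tested 25.5%, 27.2% and 29.1% were lower in these comparisons. The exception was *Orc1*, the largest ORC subunit. The depth of the fall differed widely between genes. At 72 h 20 members had a fitted level under 10% of that in NSPs, 14 lay between 10% and 25%, and 12 kept 25% or more. Without NSP replicate 1, which was high for all members, these counts were 17, 11 and 18. *E2f8* and *E2f2* came down to 0 or 1 read per library, whereas *Brca2* kept 57.5% and *Rpa2* 43.6% of their NSP levels. Subunits of one complex parted as well, with *Mcm5* at 3.18% and *Mcm6* at 37.9%, or 4.54% and 59.6% without that library. With TNF edgeR called no member at 24 h or 72 h, beside 3.50% and 9.56% of all genes, and DESeq2 called 0 and 1.

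The promoters of some members are shown because E2F proteins bind the letters TTTCCCGC or TTTGGCGC and similar sequences. Members with such letters include *E2f2*, which fell far, and *Brca2*, which fell least of the called members. *E2f8*, which fell most, does not have them in its promoter. The RefSeq promoter table for GRCm38.p6 gives 300 bases for each gene start, 250 before it and 50 after it. It matched 38 of the 46 members with 43 promoters. *Ccne2*, *Prim2*, *Gins2*, *Exo1*, *Pole*, *Mcm4*, *Gins1* and *Gmnn* had no entry. Either E2F motif, on either strand, was present in 13 of the 38 matched members (34.2%) and in 486 of the 27025 genes of the table (1.80%). The 13 were *Brca2*, *Cdc6*, *Cdt1*, *E2f2*, *Gins3*, *Mcm3*, *Mcm5*, *Mcm6*, *Mcm7*, *Pola1*, *Pold1*, *Pole2* and *Rfc3*. The letters CCAAT were found in 22 matched members (57.9%) and in 41.1% of all genes. The letters TTTGAA, the cell cycle genes homology region found in many mitosis genes, occurred in 6 matched members (15.8%) and in 20.2% of all genes. None of these 4 motifs contains another.

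The sequences below cover 4 subunits of the MCM2-7 ring, *E2f2* and *Brca2*. They lie at chr1:20820263-20820562 on the minus strand (*Mcm3*), chr8:75109259-75109558 on the plus strand (*Mcm5*), chr1:128359656-128359955 on the minus strand (*Mcm6*), chr5:138171834-138172133 on the minus strand (*Mcm7*), chr4:136172024-136172323 on the plus strand (*E2f2*) and chr5:150522371-150522670 on the plus strand (*Brca2*). Capitals mark matches to either E2F motif on either strand, and each sequence runs 5′ to 3′ as the table gives it. *Mcm3* and *Mcm6* each held 2 matches that did not overlap, and the other 4 held 1 each. A match is a description of the letters and not a measured site.
Mcm3: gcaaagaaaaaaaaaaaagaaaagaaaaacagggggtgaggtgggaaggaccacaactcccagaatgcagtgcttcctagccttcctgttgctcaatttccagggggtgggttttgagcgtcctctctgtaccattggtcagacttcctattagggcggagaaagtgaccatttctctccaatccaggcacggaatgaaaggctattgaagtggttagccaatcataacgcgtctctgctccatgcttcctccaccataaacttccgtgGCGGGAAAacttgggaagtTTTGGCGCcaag
Mcm5: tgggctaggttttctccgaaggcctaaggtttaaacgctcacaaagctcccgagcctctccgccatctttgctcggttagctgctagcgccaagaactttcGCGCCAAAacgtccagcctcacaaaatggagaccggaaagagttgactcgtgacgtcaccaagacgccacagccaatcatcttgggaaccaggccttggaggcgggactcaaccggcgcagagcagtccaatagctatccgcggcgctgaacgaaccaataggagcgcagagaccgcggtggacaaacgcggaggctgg
Mcm6: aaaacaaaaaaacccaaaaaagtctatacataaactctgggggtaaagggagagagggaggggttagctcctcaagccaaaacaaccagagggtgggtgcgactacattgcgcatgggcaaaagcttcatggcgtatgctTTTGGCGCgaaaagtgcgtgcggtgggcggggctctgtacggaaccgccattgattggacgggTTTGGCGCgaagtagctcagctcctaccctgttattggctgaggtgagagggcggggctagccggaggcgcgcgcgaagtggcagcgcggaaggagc
Mcm7: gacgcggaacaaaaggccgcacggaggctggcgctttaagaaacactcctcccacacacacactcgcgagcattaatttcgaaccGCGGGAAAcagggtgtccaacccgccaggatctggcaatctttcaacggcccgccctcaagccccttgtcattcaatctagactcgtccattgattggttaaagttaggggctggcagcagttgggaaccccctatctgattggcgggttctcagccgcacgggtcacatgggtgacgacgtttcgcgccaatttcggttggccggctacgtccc
E2f2: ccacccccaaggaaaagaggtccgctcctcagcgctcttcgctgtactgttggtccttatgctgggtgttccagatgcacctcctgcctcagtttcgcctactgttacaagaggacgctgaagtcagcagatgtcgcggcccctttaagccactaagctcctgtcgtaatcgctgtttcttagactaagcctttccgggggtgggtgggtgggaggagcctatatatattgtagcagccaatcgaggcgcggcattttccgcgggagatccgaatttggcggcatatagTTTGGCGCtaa
Brca2: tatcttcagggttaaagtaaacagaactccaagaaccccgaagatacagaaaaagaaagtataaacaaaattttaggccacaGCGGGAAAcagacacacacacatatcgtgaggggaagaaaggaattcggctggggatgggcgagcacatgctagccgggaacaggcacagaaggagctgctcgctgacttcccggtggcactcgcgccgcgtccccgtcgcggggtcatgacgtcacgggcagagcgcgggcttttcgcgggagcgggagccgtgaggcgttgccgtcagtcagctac
*Mcm5* and *Mcm6*, whose fitted levels at 72 h were 3.18% and 37.9% of that in NSPs, both held TTTGGCGC. *E2f2* and *Brca2* are shown as the members with the largest and smallest called fall among the 13 with a match. Their matches were fixed by that choice and are not a result.

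Some libraries stood apart before any comparison. Replicate 1 of the NSPs had the highest level of all 46 members among the 3 NSP libraries. Its ratio to the mean of replicates 2 and 3, in CPM (read counts scaled to a common library size) plus 0.1, had a median of 2.19 over the members and ranged from 1.26 to 3.62. A ratio of at least 1.5 was found for 42 of the 46 members and for 17.2% of all genes tested. The median ratio was 1.54 for 18 mitosis genes, while *Mki67*, which marks cycling cells, read 493, 457 and 471 CPM in replicates 1, 2 and 3. The astrocyte markers *Gfap* and *Aqp4* were lowest in replicate 1, with 11.6, 37.3 and 32.4 CPM for *Gfap* and 55.6, 208 and 213 CPM for *Aqp4*. *Gja1*, *Aldh1l1*, *Gpld1* and *Aldoc* were lowest there too, *S100b* differed little, and *Slc1a3* (3381, 2791 and 2977 CPM) and *Slc1a2* were highest there. The summed level of the 9 astrocyte markers, most of it *Slc1a3*, was 5133, 5135 and 5372 CPM. Leaving this library out moved the fitted level at 72 h by over 1.5 times for 10 of the 45 called members, all of them still called, and their values without it are given below.

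Replicate 1 of the 24 h cultures with TNF was the lowest of its group for 36 of the 46 members and for 38.8% of all genes, with a median ratio of 0.703 to the others. In that library *Gfap* read 1871 CPM against 463 and 596 CPM, and *Acta2*, a smooth muscle actin, 90.3 CPM against 527 and 493 CPM. Replicate 1 of the 72 h cultures with TNF had a median ratio of 0.965 over the members and of 1.82 over the 18 mitosis genes. In that library *Gfap* read 1022 CPM against 217 and 229 CPM, and *Acta2* 49.2 CPM against 186 and 202 CPM. Total counts ranged from 12509693 to 22549627 per library. The cells are called astrocytes in the labels, and mean *Gfap* was 27.1 CPM in NSPs, 899 CPM at 24 h, 2432 CPM at 72 h and 63.4 CPM at 1 week. From 72 h to 1 week 6 of the 9 astrocyte markers were lower and 1 was higher, and their summed level went from 5755 to 8219 CPM to 2871 to 3462 CPM. Mean *Gpld1*, which the study uses to mark maturation, was the higher one, with 67.6 CPM at 72 h and 209 CPM at 1 week. Of 7 microglia markers, 5 or 6 stayed under 1 CPM in every library of each condition, and their summed level did not pass 3.95 CPM. The summed level of 7 oligodendrocyte lineage markers was 1061 to 1366 CPM in NSPs and 82 to 91.7 CPM at 72 h, and that of 7 neuron markers, nearly all of it *Map2*, was 1618 to 2093 CPM and 1574 to 1627 CPM. Of the 6 neuron markers tested, 4 were lower at 72 h, with mean *Tubb3* at 19.7 and 7.15 CPM and mean *Dcx* at 5.22 and 0.63 CPM. For 6 fibroblast markers the sums were 6.54 to 20.6 CPM and 2.7 to 4.17 CPM, mostly *Pdgfra*, which is also in the oligodendrocyte lineage list, and the collagens were under 1 CPM in every library of both groups. The summed level of 7 endothelial and mural markers went from 5.58 to 15 CPM in NSPs to 406 to 500 CPM at 24 h and 202 to 300 CPM at 72 h. Nearly all of it in the differentiated cells was *Acta2*. The endothelial markers *Pecam1*, *Cdh5* and *Cldn5* stayed under 1 CPM in every library. Of the 4 endothelial and mural markers tested, 2 were higher at 24 h and 3 at 72 h. The part of these cell types in the results was not tested.

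**Figure D1:**
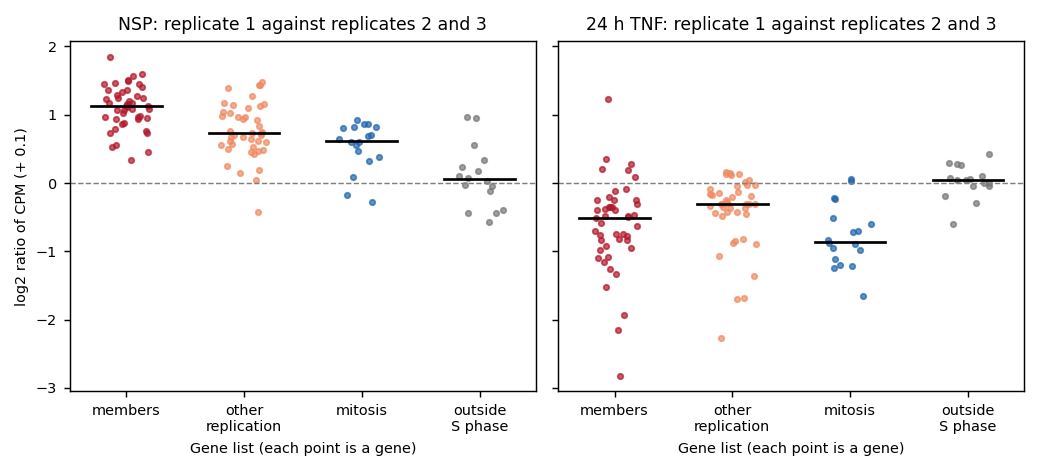
Ratio of replicate 1 to the mean of replicates 2 and 3 in NSPs (left) and in 24 h cultures with TNF (right), as log2 of CPM plus 0.1 on the vertical axis, for the 46 members, 43 other replication genes, 18 mitosis genes and 16 counterparts that act outside S phase. Each point is a gene and each bar a median, and all 46 members lie above 0 in the NSP panel.

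The first comparison asked how far these genes came down on leaving the NSP state. At 24 h 45 of 46 members were lower (edgeR quasi-likelihood test, adjusted p under 0.05), while 25.5% of all genes tested were lower in this comparison. The median log2 fold change over the members was -2.55, against 0.06 over all genes tested. At 72 h 45 were lower, beside 27.2% of all genes, with a median of -2.84. At 1 week 45 were lower, beside 29.1% of all genes, with a median of -3.21. Every differentiated library lay below every NSP library for 45 members at each time, and for 29.6%, 29.3% and 31.7% of all genes tested. Without NSP replicate 1 the same 45 were called each time, and the medians were -2.03, -2.43 and -2.90. RNA from whole cultures was measured, so fewer cells in S phase and less RNA per cell cannot be told apart.

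**Figure D2:**
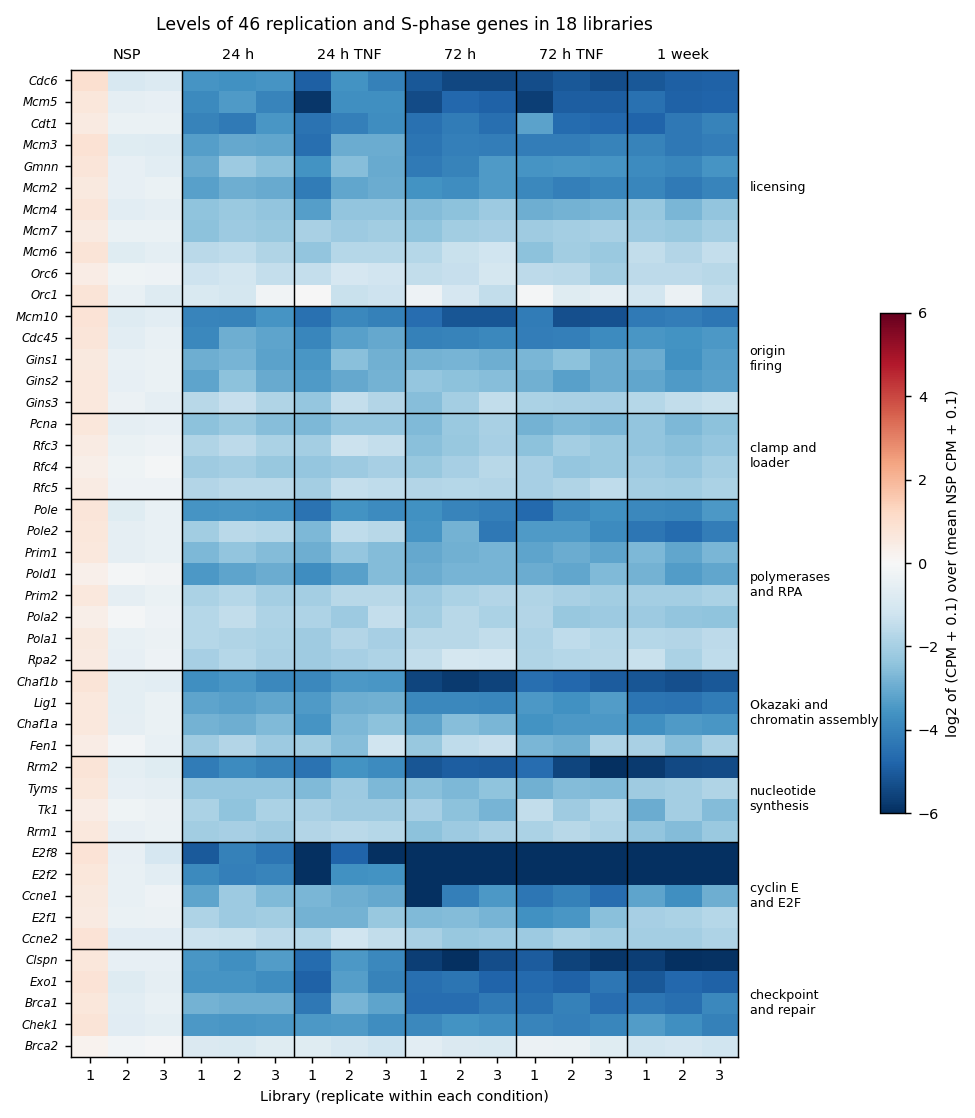
Levels of the 46 members (rows, grouped by role) in 18 libraries (columns, replicates 1 to 3 of each condition), as log2 of CPM plus 0.1 over the mean NSP level plus 0.1. Blue is below and red above the NSP mean, and the differentiated libraries are blue for nearly all members, with *Orc1* and *Brca2* the palest.

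Among the 11 licensing genes, 10 fell and the median log2 fold change was -2.56 at 24 h and -3.59 at 72 h. *Cdc6*, the ATPase that brings the helicase to ORC, read 55.8, 14.6 and 16.2 CPM in NSPs. It read 2.42, 2.24 and 2.36 CPM at 24 h and 0.757, 0.552 and 0.55 CPM at 72 h. The 3 groups did not overlap, and the fall was the largest among the licensing genes at 72 h, at -5.54 ± 0.49 on the log2 scale (SE, n = 3 per group, edgeR adjusted p = 2.5e-08). Without NSP replicate 1 it was -4.64, still the largest of the group.

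*Orc1* read 14.5, 6.21 and 4.95 CPM in NSPs, 4.53, 4.08 and 7.41 CPM at 24 h, 6.89, 4.23 and 3.03 CPM at 72 h and 3.89, 6.69 and 2.96 CPM at 1 week. The ranges overlapped. Its log2 fold change at 72 h was -0.87 ± 0.43 (edgeR adjusted p = 0.098), with a 95% interval from -1.77 to 0.04, and without NSP replicate 1 it was -0.26. *Orc6*, another ORC subunit, fell by 1.30 on the log2 scale at 72 h and kept 40.7% of its NSP level. The licensing activator *Cdt1* and its inhibitor *Gmnn* (geminin) both fell, to 4.41% and 6.68% at 72 h. Per kilobase of exons, the ratio of *Cdt1* to *Gmnn* was 0.454, 0.556 and 0.598 in NSPs, 0.248, 0.114 and 0.255 at 24 h and 0.431, 0.442 and 0.226 at 72 h. It was lower in all 3 libraries of 24 h and of 72 h than in any NSP library, but 0.431 and 0.442 lie just under the lowest NSP value. The 72 h ratios rest on 12, 18 and 16 *Cdt1* reads and 13, 19 and 33 *Gmnn* reads. At 1 week the ratio was 0.241, 0.385 and 0.365, and at 24 h with TNF 0.28, 0.166 and 0.307. At 72 h with TNF it was 0.66, 0.225 and 0.215, so replicate 1 lay above all NSP values. This ratio and the ratios below were chosen after the levels had been seen and carry no test.

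The 6 subunits of MCM2-7 form a ring with 1 copy of each, yet their RNAs came down unequally. *Mcm6* had the highest level per kilobase of all licensing genes in NSPs. It read 451, 158 and 173 CPM in NSPs, 85.9, 89.4 and 74.3 CPM at 24 h, 80.7, 102 and 114 CPM at 72 h and 94.4, 78.1 and 96 CPM at 1 week. The values at 24 h, 72 h and 1 week overlapped one another and lay below all NSP values. Its log2 fold change at 72 h was -1.40 ± 0.29 (SE, n = 3 per group, edgeR adjusted p = 0.00045), and -0.75 without NSP replicate 1.

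*Mcm5* read 200, 85.7 and 87.7 CPM in NSPs, 8.69, 11.5 and 7.82 CPM at 24 h, 2.95, 4.66 and 4.13 CPM at 72 h and 5.39, 4.22 and 4.37 CPM at 1 week. It came down in steps, with the 72 h values below all 24 h values. Its log2 fold change at 72 h was -4.98 ± 0.44 (edgeR adjusted p = 2.6e-08). The ratio of *Mcm6* to *Mcm5* per kilobase was 1.93, 1.58 and 1.68 in NSPs, 8.46, 6.67 and 8.13 at 24 h, 23.4, 18.7 and 23.6 at 72 h and 15, 15.8 and 18.8 at 1 week. NSP replicate 1 did not stand apart in this ratio as it did in the levels. At 72 h *Mcm3* was at 5.40% and *Mcm2* at 8.33% of the fitted NSP level, near *Mcm5*, while *Mcm4* was at 18.9% and *Mcm7* at 22.8%. The log2 fold change of *Mcm3* was -4.21, and -3.47 without NSP replicate 1. Within single libraries the highest subunit exceeded the lowest, in CPM per kilobase, 2.54 to 3.41 times in NSPs and 18.7 to 23.6 times at 72 h. *Mcm6* was the highest in all 18 libraries.

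**Figure D3:**
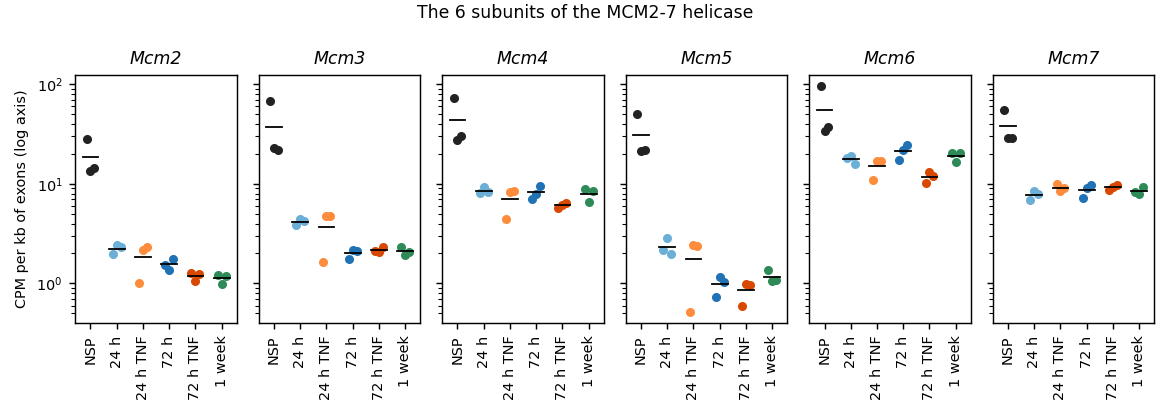
CPM per kilobase of exons (log axis) of the 6 MCM2-7 subunits in each condition, with a point per library and a bar at the mean. At 72 h the means of *Mcm2*, *Mcm3* and *Mcm5* lie between 0.98 and 2.02 CPM per kilobase, and those of *Mcm4*, *Mcm6* and *Mcm7* between 8.21 and 21.2.

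All 5 genes of origin firing fell, with a median log2 fold change of -3.00 at 24 h and -2.91 at 72 h. *Cdc45*, which completes the active helicase with GINS, shared the highest mean NSP level per kilobase of the group with *Gins1*, at 10.5 CPM per kilobase each. *Cdc45* read 60.2, 23.8 and 26.8 CPM in NSPs. It read 2.42, 4.75 and 3.99 CPM at 24 h and 2.12, 2.21 and 2.42 CPM at 72 h. The groups of 24 h and 72 h touched at 2.42 CPM, and the log2 fold change from NSPs to 72 h was -4.03 ± 0.34 (edgeR adjusted p = 1.3e-08).

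*Mcm10*, which helps to start the fork, had the largest fall of the group. It read 84.2, 28.4 and 31.2 CPM in NSPs, 2.95, 2.91 and 3.99 CPM at 24 h and 1.89, 1.29 and 1.27 CPM at 72 h (log2 fold change -5.03 ± 0.41, edgeR adjusted p = 6.9e-09), and without NSP replicate 1 the log2 fold change was -4.34. *Gins3* had the smallest, with 21.1, 10.7 and 9.39 CPM in NSPs and 2.27, 3.31 and 4.84 CPM at 72 h (log2 fold change -1.96 ± 0.31, edgeR adjusted p = 3e-05). Of the other GINS subunits, *Gins1* was at 13.3% and *Gins2* at 18% of the NSP level at 72 h, against 25.7% for *Gins3*. The remaining subunit *Gins4*, which is not among the 46, read 38.9, 27.7 and 28.2 CPM in NSPs, 17.5, 20.9 and 15.7 CPM at 24 h and 23.5, 29.1 and 28.8 CPM at 72 h. It was lower at 24 h (log2 fold change -0.81, edgeR adjusted p = 0.00036) and at 1 week (-0.56, edgeR adjusted p = 0.0048), and at 72 h it was not called (-0.22, edgeR adjusted p = 0.25). Of the exons of *Gins2* 67.3% overlap *Gse1* on the other strand. The strand setting of the counting is not given in the sources used here, so reads of the 2 genes may have been mixed or left out, and its level is uncertain.

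The clamp and 3 of the loader subunits were the most even group of members. All 4 genes fell, with fitted levels at 72 h between 21.1% and 29.7% of that in NSPs, and between 26.8% and 36.9% without NSP replicate 1. *Pcna*, the sliding clamp, had the highest level, and its fall was as large as that of *Rfc3*, both to 21.1%. *Pcna* read 350, 154 and 158 CPM in NSPs, 39.9, 47.6 and 37.3 CPM at 24 h and 35.0, 46.6 and 58.0 CPM at 72 h. The 2 later groups overlapped, and the log2 fold change of *Pcna* at 72 h against NSPs was -2.24 ± 0.26 (edgeR adjusted p = 6.4e-07). Without NSP replicate 1 it was -1.75, against -1.90 for *Rfc3* and -1.76 for *Rfc4*.

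*Rfc5*, a subunit of the clamp loader, had the smallest fall of these 4 genes, from 70.6, 40.5 and 40.7 CPM in NSPs to 14.9, 15.3 and 14.9 CPM at 72 h (log2 fold change -1.75 ± 0.20, edgeR adjusted p = 8.1e-07). *Rfc3* and *Rfc4* kept 21.1% and 25.8%. The loader subunits outside the 46, *Rfc1* and *Rfc2*, had log2 fold changes of -0.66 and -0.83 at 72 h and were both called, so the loader as a whole was less even. No gene of the 4 was called between 24 h and 72 h, where their log2 fold changes ran from -0.49 to 0.21.

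All 8 genes of the polymerases and RPA fell, and they spread more widely. *Rpa2*, a subunit of the protein that coats single-stranded DNA, had the highest level per kilobase and the smallest fall. It read 72.6, 35.6 and 40.4 CPM in NSPs, 12.5, 15.1 and 12.6 CPM at 24 h, 17.9, 23.5 and 23.3 CPM at 72 h and 19.4, 13.2 and 17.2 CPM at 1 week. All 72 h values lay above all 24 h values and below all NSP values. Its log2 fold change at 72 h was -1.20 ± 0.22 against NSPs (edgeR adjusted p = 0.00013).

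*Pole*, the catalytic subunit of the leading-strand polymerase epsilon, had the largest fall of these 8. It read 169, 62.8 and 76.7 CPM in NSPs, 8.77, 8.95 and 8.72 CPM at 24 h and 8.25, 6.44 and 6 CPM at 72 h (log2 fold change -3.90 ± 0.34, edgeR adjusted p = 1.8e-08). Its partner *Pole2* followed another course and is described below. *Pold1*, the catalytic subunit of the lagging-strand polymerase delta, was at 13.6% of the NSP level at 72 h. The 4 subunits of polymerase alpha-primase, which starts each new strand, were at 33.1% (*Pola1*), 27.0% (*Pola2*), 26.0% (*Prim2*) and 13.4% (*Prim1*). Per kilobase the ratio of *Pola1* to *Pole* was 1.19, 1.59 and 1.37 in NSPs and 5.19, 6.72 and 8.07 at 72 h, with no overlap.

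The genes of Okazaki fragment processing and chromatin assembly all fell. *Lig1*, the ligase that seals these fragments, had the highest level of the 4 per kilobase and read 125, 54.0 and 60.1 CPM in NSPs, 8.84, 8.16 and 8.96 CPM at 24 h and 5.3, 5.4 and 5.17 CPM at 72 h (log2 fold change -3.91 ± 0.26, edgeR adjusted p = 6e-10). *Chaf1b*, a subunit of the histone chaperone CAF-1, had the largest fall. It read 42.7, 16.8 and 16.2 CPM in NSPs, 1.89, 2.12 and 1.63 CPM at 24 h and 0.454, 0.368 and 0.44 CPM at 72 h (log2 fold change -5.88 ± 0.39, edgeR adjusted p = 4.9e-10), and -5.27 without NSP replicate 1. Its partner *Chaf1a* was at 14.3% of the NSP level at both 24 h and 72 h, while *Chaf1b* went from 7.55% to 1.70%.

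*Fen1*, the flap nuclease, read only 5.52, 3.57 and 2.96 CPM in NSPs and 0.757, 1.35 and 1.49 CPM at 72 h (log2 fold change -1.71 ± 0.37, edgeR adjusted p = 0.00067). Its exons overlap *Gm10143* on the other strand over 78.8% of their length, and 52.5% of those of *Chaf1a* overlap *Ubxn6*, so both levels are uncertain in the same way as that of *Gins2*. Narrower overlaps were present too, some with more abundant genes on the other strand. *Rfc4* overlaps *Eif4a2* over 12.7% of its exons, with 3404 and 112819 reads in all. *Ccne2* overlaps *Ints8* over 17.4%, with 4473 and 20130 reads, and such levels share this limit.

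In nucleotide synthesis the 2 subunits of ribonucleotide reductase parted. *Rrm2*, the small subunit whose protein is made in S phase, had the highest level per kilobase of its group in NSPs and the largest fall. It read 231, 87.8 and 80.6 CPM in NSPs, 7.18, 9.62 and 8.07 CPM at 24 h, 3.71, 4.23 and 4.13 CPM at 72 h and 2.38, 3.01 and 3.17 CPM at 1 week. Each of these groups lay below the one before it. The log2 fold change at 72 h was -5.04 ± 0.41 (edgeR adjusted p = 7.8e-09), and -4.38 without NSP replicate 1.

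*Rrm1*, the large subunit, had the smallest fall of the group. It read 518, 238 and 252 CPM in NSPs, 79.7, 83.2 and 77.1 CPM at 24 h and 60.5, 75.2 and 86.8 CPM at 72 h (log2 fold change -2.18 ± 0.22, edgeR adjusted p = 1.7e-07). Per kilobase the ratio of *Rrm1* to *Rrm2* was 0.564, 0.682 and 0.786 in NSPs, 2.79, 2.18 and 2.4 at 24 h and 4.11, 4.47 and 5.29 at 72 h. The large subunit was thus below the small one in all 3 NSP libraries and above it in every later library. Thymidylate synthase (*Tyms*) and thymidine kinase 1 (*Tk1*) were at 17.1% and 18.9% of the NSP level at 72 h.

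The regulators held the deepest falls. *E2f8*, an E2F that represses transcription, read 27.7, 10.8 and 7.68 CPM in NSPs and 0.378, 0.839 and 0.652 CPM at 24 h. At 72 h it had 0, 1 and 0 reads in the 3 libraries, against 768 reads over the NSP libraries. The level in NSPs was 710 times that at 72 h, with an interval from 127 to 28099 that covers counting error only. The fitted log2 fold change of *E2f8* was -9.07, and it was -8.34 without NSP replicate 1 and -10.98 without 72 h replicate 2, the library with the 1 read. *E2f2*, an activating E2F, read 22.8, 10.2 and 9.05 CPM in NSPs and 0.907, 0.727 and 0.815 CPM at 24 h, and had 1, 1 and 0 reads at 72 h. Its NSP level was 326 times that at 72 h, with an interval from 89.9 to 2698. Its fitted log2 fold change was -8.14, and -7.54 without 72 h replicate 3. Both genes fell by the test at 24 h and at 72 h, and both had at most 2 reads in any library of 1 week.

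The activator *E2f1* kept more, at 12.6, 6.7 and 6.88 CPM in NSPs, 1.29, 1.35 and 1.16 CPM at 72 h and 2.12, 2.3 and 2.61 CPM at 1 week. All 1 week values lay above all 72 h values, but the change was not called (log2 fold change 0.88 ± 0.32, edgeR adjusted p = 0.12). *Ccne2*, a cyclin E that drives entry into S phase, had the smallest fall of the regulators. It read 65.9, 23.1 and 23 CPM in NSPs and 9.69, 7.55 and 8.03 CPM at 72 h (log2 fold change -2.15 ± 0.30, edgeR adjusted p = 9e-06), and -1.46 without NSP replicate 1. *Ccne1*, the other cyclin E, was at 5.02% of the NSP level at 72 h, against 22.5% for *Ccne2*. At 72 h *Ccne1* had 1, 12 and 22 reads in the 3 libraries, and its log2 fold change of -4.32 became -5.03 without replicate 3.

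In the checkpoint and repair group *Clspn* (claspin, which passes the replication stress signal to CHK1) had the largest fall. It read 92.4, 41.6 and 41 CPM in NSPs, 5.06, 4.47 and 5.54 CPM at 24 h and 1.06, 0.798 and 1.38 CPM at 72 h (log2 fold change -5.74 ± 0.38, edgeR adjusted p = 5.4e-10). *Brca1*, a repair gene with the highest NSP level per kilobase of the group, read 131, 52.4 and 58.4 CPM in NSPs, 11.2, 10.5 and 10.5 CPM at 24 h and 3.33, 3.25 and 4.13 CPM at 72 h (log2 fold change -4.49 ± 0.37, edgeR adjusted p = 1e-08). The 3 groups of each gene did not overlap.

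*Brca2*, a DNA repair gene, fell less than the other members of this group. It read 56.6, 43.5 and 46.3 CPM in NSPs, 26.7, 26.2 and 29.0 CPM at 24 h, 31.8, 26.4 and 26.0 CPM at 72 h and 22.6, 24.0 and 21.3 CPM at 1 week. Its fall at 72 h was the smallest of all called members, with a log2 fold change of -0.80 ± 0.15 (edgeR adjusted p = 0.00016). *Exo1* and *Chek1* were at 3.99% and 7.31% of the NSP level at 72 h. Their log2 fold changes were -4.65 and -3.77, and -3.99 and -3.15 without NSP replicate 1.

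**Figure D4:**
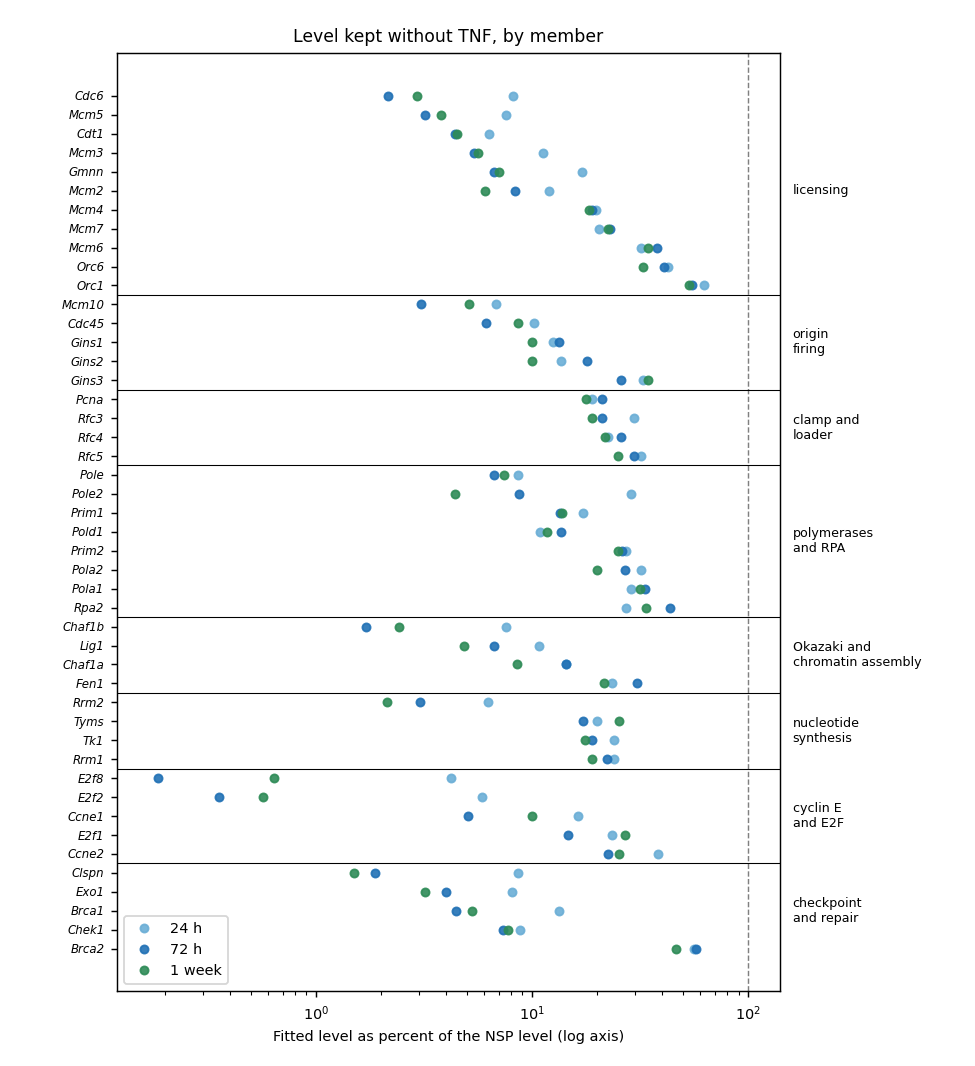
Fitted level of each member at 24 h, 72 h and 1 week without TNF, as a percent of the NSP level on a log axis, grouped by role. The 3 points of *Pcna*, *Mcm4* and *Pola1* nearly coincide, whereas those of *Cdc6*, *Pole2*, *Clspn*, *E2f2* and *E2f8* move left from 24 h to 72 h.

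Most of the fall had occurred by the first day. For 28 of the 46 members the log2 fold change at 24 h was at least 80% of that at 72 h. Between 24 h and 72 h without TNF 10 members fell further, beside 12.6% of all genes that were lower, and 1 rose, beside 12.2% of all genes that were higher. The median log2 fold change over the members was -0.35. The 10 were *Cdc6*, *Gmnn*, *Mcm5*, *Pole2*, *Chaf1b*, *Ccne1*, *E2f2*, *E2f8*, *Brca1* and *Clspn*, and 3 of them belong to the cyclin E and E2F group.

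*Pole2*, an accessory subunit of polymerase epsilon, read 26.7, 11.5 and 12.3 CPM in NSPs, 3.93, 5.37 and 5.13 CPM at 24 h, 1.36, 2.27 and 0.77 CPM at 72 h and 0.751, 0.603 and 0.845 CPM at 1 week. Its log2 fold change from 24 h to 72 h was -1.72 ± 0.40 (edgeR adjusted p = 0.0036), and only 51.2% of its log2 fall at 72 h had been reached at 24 h, compared with 90.8% for *Pole*. *Clspn* had the lowest adjusted p, with a log2 fold change of -2.20 ± 0.39 (edgeR adjusted p = 0.00036). The member that rose was *Rpa2*, with a log2 fold change of 0.69 ± 0.22 (edgeR adjusted p = 0.029). Some of these calls rested on single libraries. *Mcm5* was no longer called without any 1 of the 6 libraries, *Gmnn* without 24 h replicate 2 or 72 h replicate 1 or 2, and *Ccne1* without 24 h replicate 2. *Rpa2* was no longer called without 24 h replicate 1 or 3 or 72 h replicate 2 or 3. Leaving out 1 library at a time gave 8 or 9 called members.

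With TNF present 6 members fell from 24 h to 72 h, beside 7.93% of all genes that were lower, and 1 rose, beside 5.38% of all genes that were higher. Those that fell were *Pole2*, *Chaf1b*, *Rrm2*, *Ccne1*, *E2f2* and *Clspn*, and *Brca2* rose. *Brca2* read 29.7, 25.3 and 21.2 CPM at 24 h with TNF and 38.1, 37.1 and 29.3 CPM at 72 h with TNF, groups that overlapped slightly (log2 fold change 0.46 ± 0.15, edgeR adjusted p = 0.049). *Brca2* was no longer called without 24 h TNF replicate 2 or 3 or 72 h TNF replicate 1 or 2, nor with weaker filters or only the groups compared, where its log2 fold change was 0.34 to 0.48. The count depended on single libraries. Without the 24 h TNF replicate 1, 12 members were lower and 1 was higher, among them *Mcm2*, *Mcm3*, *Mcm5*, *Orc6*, *Rfc3*, *Chaf1a* and *Brca1*. *Mcm5*, one of these, read 2.08, 9.69 and 9.43 CPM at 24 h with TNF and 2.37, 3.95 and 3.88 CPM at 72 h with TNF. Without replicate 2 or replicate 3 at 24 h, or replicate 1, 2 or 3 at 72 h, the total called was 1, 2, 4, 2 and 2. With the replicate number as a block 5 were lower and 1 was higher.

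From 72 h to 1 week no member was called by edgeR, beside 6.63% of all genes in either direction. At an unadjusted p under 0.05 there were 5, beside 19.3% of all genes, and DESeq2 called 0. The lowest adjusted p was 0.12. The median log2 fold change was -0.07 and the median half-width of the 95% intervals 0.65, which is the precision of a single member here. For 24 of the 46 members the interval lay between -1 and 1.

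TNF was given from the start of differentiation, and the question here was whether it altered the fall. Against NSPs, the same control libraries as above, 45 members were lower at 24 h with TNF, beside 26.3% of all genes, and 45 at 72 h with TNF, beside 30.1% of all genes. The median log2 fold changes were -2.78 and -3.10, and -2.37 and -2.70 without NSP replicate 1. *Orc1* was the member not called in both. Its values with TNF were 8.31, 3.36 and 3.6 CPM at 24 h and 7.83, 5.16 and 5.57 CPM at 72 h. Without replicate 1 of the 24 h TNF group all 46 members were lower at 24 h.

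Compared directly with untreated cells, no member was called by edgeR at 24 h, beside 3.50% of all genes in either direction. At an unadjusted p under 0.05 there was 1, *E2f8*, beside 13.8% of all genes, and DESeq2 called 0. It had 5, 15 and 8 reads at 24 h and 0, 6 and 2 with TNF (log2 fold change -1.82 ± 0.81, edgeR adjusted p = 0.32). The members' median log2 fold change was -0.11, and -0.00, -0.22 and -0.24 without replicate 1, 2 or 3 of the 24 h TNF group. The median half-width of the 95% intervals was 0.66, and for 32 of 46 members the interval lay between -1 and 1.

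At 72 h no member was called by edgeR, beside 9.56% of all genes. At an unadjusted p under 0.05 there were 7 of 46, beside 25.2% of all genes, so this count is not a result about the members. It was 8, 2 and 1 without replicate 1, 2 or 3 of the untreated group, and 2, 4 and 7 without replicate 1, 2 or 3 of the TNF group. Of the 7, 4 were lower and 3 higher with TNF, and DESeq2 called 1. That member was *Mcm6*, which read 80.7, 102 and 114 CPM at 72 h and 47.5, 62.0 and 55.7 CPM at 72 h with TNF. The groups did not overlap, and the log2 fold change was -0.84 ± 0.29, with a 95% interval from -1.45 to -0.24 (edgeR adjusted p = 0.073). The other 6 were *Rpa2*, *Orc6* and *Chaf1a*, with values of -0.54, -0.44 and -0.72 on the log2 scale, and *Tk1*, *Chaf1b* and *Brca2*, with 0.64, 1.02 and 0.31. The median log2 fold change over the members was -0.04, and for 25 the interval lay between -1 and 1.

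The interaction of TNF and time, which asks whether the TNF effect differed between 72 h and 24 h, called no member in edgeR, beside 0.458% of all genes. At an unadjusted p under 0.05 there were 0, beside 10.1% of all genes, and DESeq2 called 0. The intervals were wide, with a median half-width of 0.93.

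**Figure D5:**
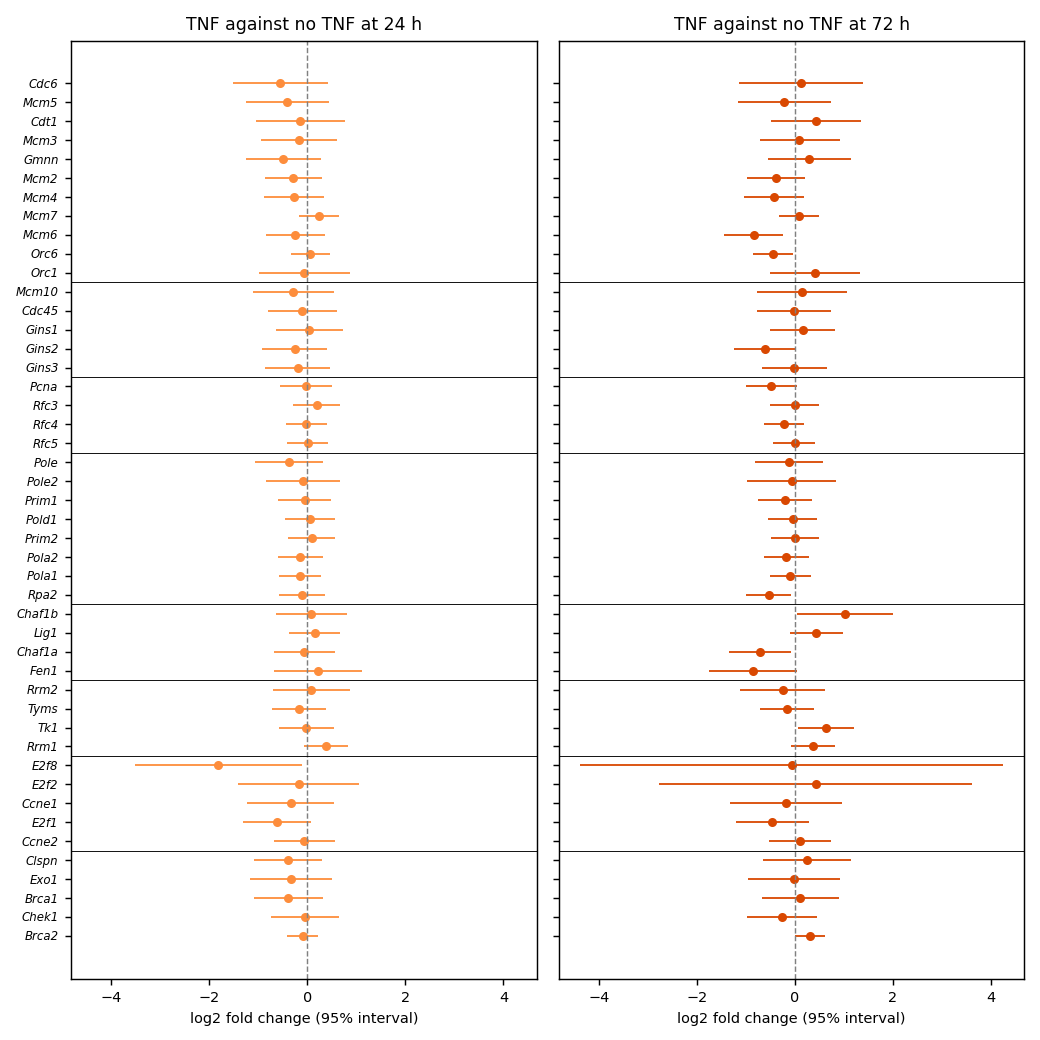
Log2 fold change of each member with TNF against no TNF at 24 h (left) and 72 h (right), with 95% intervals, grouped by role. Most intervals cross 0, that of *Mcm6* at 72 h lies below 0, and those of *E2f2* and *E2f8* at 72 h are wide, with 0 or 1 read in each library.

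Other genes of the same machinery were read from a list of 43 replication genes outside the members. At 24 h 39 of them were lower, beside 25.5% of all genes, and none higher, with a median log2 fold change of -1.89. At 72 h 37 were lower, beside 27.2% of all genes, and 1 was higher, with a median of -1.81. At 1 week 37 were again lower, beside 29.1% of all genes, and 1 higher. The largest falls at 72 h were those of *Uhrf1*, which carries DNA methylation through replication (log2 fold change -6.96 ± 0.48, edgeR adjusted p = 7.3e-10), *Ccna2*, the S-phase cyclin A (-5.81), and the repressor *E2f7* (-5.43). The gene that rose was *Orc3*, an ORC subunit, from 106, 101 and 105 CPM in NSPs to 144, 149 and 157 CPM at 72 h (log2 fold change 0.53 ± 0.10, edgeR adjusted p = 0.00021). *Orc4* and *Rpa1* were not called at 72 h, with log2 fold changes of -0.03 and -0.02. None of the 43 was called with TNF at 24 h or 72 h by edgeR, beside 3.50% and 9.56% of all genes. At an unadjusted p under 0.05 there were 0 and 6, beside 13.8% and 25.2% of all genes, and DESeq2 called 0 and 1.

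Of 16 genes with related roles outside S phase, 8 were lower and 1 higher at 24 h, 5 lower and 3 higher at 72 h, and 8 lower and 3 higher at 1 week. The shares of all genes that were lower were 25.5%, 27.2% and 29.1%. The 16 genes had median log2 fold changes of -0.30, -0.28 and -0.32. The lower ones at 72 h were led by *Mcm8* (-1.99), an MCM relative of repair, *Polg* (-1.61), the mitochondrial DNA polymerase, and *Polh* (-1.44), a bypass polymerase. The higher ones were *Samhd1*, which breaks down nucleotides (1.26), *Rbl2*, a retinoblastoma relative of resting cells (0.76), and *Polk*, a bypass polymerase (0.59). The reductase subunit *Rrm2b*, a relative of *Rrm2* that serves resting cells, was at 38.2 CPM in NSPs and 30.7 CPM at 72 h and was not called (log2 fold change -0.31).

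All 18 mitosis genes were lower at 24 h, 72 h and 1 week, beside 25.5%, 27.2% and 29.1% of all genes. Their median log2 fold changes were -4.24, -6.03 and -6.37. From 24 h to 72 h 17 of the 18 fell further, beside 12.6% of all genes that were lower. The largest falls at 72 h were those of the checkpoint kinase *Bub1* (-9.33), *Mki67* (-8.41) and cyclin B1, *Ccnb1* (-8.06). With TNF no mitosis gene was called by edgeR at 24 h or 72 h, beside 3.50% and 9.56% of all genes. The numbers at an unadjusted p under 0.05 were 1 and 3, beside 13.8% and 25.2% of all genes, and DESeq2 called 0 and 1. At 72 h with TNF *Mki67* read 10, 1.62 and 1.75 CPM, and replicate 1 stood apart.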

How the data were processed

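RNA of 18 cultures was measured in 6 conditions with 3 replicates each. The authors removed ribosomal RNA, made stranded libraries, trimmed paired reads with Trim Galore, aligned them with STAR, counted reads per gene with featureCounts, and deposited raw counts without normalization. The submitters' processing notes name mm10 as the build, and the strand setting is not given in the sources used here. The RNA quality numbers are given only as a range, so their part in the results was not tested. Gene names and positions came from GENCODE M21 on GRCm38, and promoters from RefSeq on GRCm38.p6. One column, for 72 h replicate 3, carries another replicate number than its label and was matched by its library index.

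From the counts, edgeR 4.0.16 (limma 3.58.1, R 4.3.3) computed TMM factors and fitted its quasi-likelihood test to the 18 libraries together, each condition having its own mean. It tested the 20067 genes past its filter, with Benjamini-Hochberg adjustment over all of them at a threshold of 0.05. Standard errors are the absolute log2 fold change over the root of F, and fitted levels are powers of 2 of the log2 fold change. Alternatives were DESeq2 1.42.0, RLE normalization, other filters, leaving out each library, fits limited to the compared groups, a block for the replicate number, and calls that also needed a log2 fold change of 1 or more. Deviations from the group means were correlated between same-numbered libraries, by the labels' numbers. Every pair correlated above 0.1 only for 72 h against 24 h with TNF (0.291, 0.255 and 0.266). The main fit used no pairing in any comparison, this one included. The block for the replicate number called 5 lower and 1 higher there. Total counts ranged from 12509693 to 22549627, and intervals on reads are exact binomial at 95% and cover counting error only. Pairs of replicates within a condition gave a chi-square of 4.08 to 62.7 per degree of freedom, beyond counting noise. For 72 h against NSP, counts were simulated for these groups alone, with 17602 genes, 192 of them changed, and independent noise. The test found 51.8% of 2-fold and 90.7% of 4-fold changes, with 4.73% of its calls false. In the data 18 libraries were fitted, far more genes were called and NSP replicate 1 stood apart. These rates may therefore not hold for the reported calls. Tables and figures used Python 3.11.15, numpy 2.4.6, pandas 2.3.3, scipy 1.17.1 and matplotlib 3.10.9.

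The members, the gene lists and the pairs of subunits were chosen with earlier results of these data known. Every replicate's value is given, within each role, for the member with the highest NSP level per kilobase and those with the largest and smallest fall at 72 h, and for members not called against NSPs. Members called or singled out in later comparisons, and the 3 largest changes per direction in the other lists, were named as well. *Cdt1*, *Gmnn*, *Mcm5*, *Pole2*, *E2f1*, *E2f2*, *Rrm2b*, *Orc4*, *Rpa1*, *Gins4*, *Rfc1* and *Rfc2* were added after their values had been seen.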

Additional observations from a re-analysis of the deposited data

How the results depend on the processing

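Against NSPs every alternative kept between 38 and 46 members lower and none higher, in the 5 comparisons, and the replicate block called the same 45 in each. Leaving out 1 library gave 45 to 46 called members at 72 h, at 1 week and at 24 h with TNF, and 45 at 24 h without TNF and at 72 h with TNF. The exception was *Orc1*, whose log2 fold change at 72 h with TNF ran from -0.74 to 0.14 when 1 library was left out, the positive value being that without NSP replicate 1. From 24 h to 72 h without TNF, 17 members were called with no filter and 18 in a fit of only the groups compared, against 11, and leaving out 1 library gave 8 to 9. The replicate block called 11. With TNF the call count of 7 became 12 with no filter, 4 with at least 10 counts in every library and 2 with only the groups compared, and leaving out 1 library gave 1 to 13. The replicate block called 6 there. From 72 h to 1 week, only the groups compared gave 1, and with TNF at 24 h no filter gave 1. With TNF at 72 h no filter gave 2, only the groups compared 1 and DESeq2 1, and leaving out 1 library gave 0 to 1. The other alternatives stayed within 1.5 times the count, and the replicate block changed no other count by more. The cause of these differences was not tested, apart from the smaller number of members (40) that the filter of 10 counts left. Levels under about 1 CPM rest on few reads, and *E2f2* and *E2f8* after 24 h cannot be ordered between conditions at this depth.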

Other observations

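*Polk*, a bypass polymerase from the list of genes that act outside S phase, was higher with TNF at both times. It read 41.7, 36.9 and 41.6 CPM at 24 h and 91.4, 74.1 and 61.7 CPM at 24 h with TNF, a log2 fold change of 0.92 ± 0.14 (edgeR adjusted p = 0.00059). At 72 h it read 55.6, 52.3 and 56.9 CPM without and 118, 103 and 90.5 CPM with TNF, a log2 fold change of 0.92 ± 0.14 (edgeR adjusted p = 0.00021). The groups did not overlap at either time. It was also higher at 1 week than at 72 h (0.61 ± 0.14, edgeR adjusted p = 0.0093), at 82.8, 81.7 and 87.4 CPM. It was named after its values had been seen, and edgeR called none of the 46 replication and S-phase genes in these comparisons, while DESeq2 called 1 of them, *Mcm6*, with TNF at 72 h.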
